A study of Homo sapiens with 6 samples.

Results

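The 10 genes described here, MYH1, MYH2, MYH3, MYH4, MYH6, MYH7, MYH8, MYH9, MYH10 and MYH11, encode heavy chains of class II myosin, the motor of muscle contraction and of the contractile cytoskeleton of other cells. They were chosen by symbol, and each was read by the transcript cluster (the probes that an array groups as 1 gene) that carried that symbol alone. All 10 of 10 were measured, each by 1 cluster, among 22448 genes read by single-symbol clusters. RNA came from RH30, a human cell line established from fusion-positive (alveolar) rhabdomyosarcoma and grown in medium with fetal bovine serum. It was hybridised to 6 Affymetrix Human Transcriptome arrays. Both groups expressed the IκBα super-repressor (IκBα-SR), which blocks NF-κB. The control group, RH30-SR, comprised 3 arrays. The other group, RH30-SR MyoDΔ, comprised 3 arrays of clone 29, which was the only MyoD-deleted clone (CRISPR) on the arrays, so that an effect of the deletion and a property of this clone cannot be told apart. Whether the RH30-SR cells on the arrays carried a guide RNA was not stated in the labels.

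A class II myosin heavy chain has a motor head that binds actin and splits ATP, and a long coiled tail through which molecules pack into filaments. The sarcomeric heavy chains appear in a fixed order during muscle development. MYH3 (embryonic) and MYH8 (perinatal) come before the adult fast chains MYH2 (type IIa), MYH1 (type IIx) and MYH4 (type IIb), and these genes lie side by side on chromosome 17. MYH7 encodes the slow, beta-cardiac chain and MYH6 the alpha-cardiac chain, and they neighbour each other on chromosome 14. MYH11 encodes the smooth muscle chain, while MYH9 and MYH10 encode non-muscle myosin IIA and IIB, which most cells use for division, adhesion and migration. MyoD, the factor that commits cells to skeletal muscle, binds E-boxes and acts with MEF2 proteins on many sarcomeric genes. Comparing RH30-SR MyoDΔ with RH30-SR asked whether the heavy chain genes of these tumor cells depend on MyoD.

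The targeted gene read lower in MyoDΔ cells. MYOD1 read 9.09, 9.50 and 9.43 on the RH30-SR arrays and 6.95, 7.16 and 6.90 on the RH30-SR MyoDΔ arrays (log2 expression), which gave a log2 difference of -2.34 ± 0.12 (SE over 3 arrays per group) and a limma adjusted p of 1.02e-04. Where the edit lies relative to the probes was not worked out here. All 10 of 10 markers chosen for skeletal muscle, with earlier results of these data known, lay above the median of all transcript clusters (4.295). So did 15771 of all 22448 genes, 9 of 10 smooth muscle, 7 of 10 cardiac and 4 of 5 epithelial markers. This position alone therefore does not mark a cell type. Of the skeletal markers, 9, MYOD1 itself included, were lower and 1 was higher in MyoDΔ cells, against 4.2% of all genes called lower and 2.81% called higher. The summed log2 level of these markers was 87.6 to 89.5 on the RH30-SR arrays and 72.0 to 72.4 on the MyoDΔ arrays. In RNA from whole cultures, fewer cells of a kind and less RNA per cell cannot be told apart. Of the markers of other cell types, 1 of 10 cardiac markers was higher and 1 lower, 1 of 5 endothelial markers was lower and 1 of 5 leukocyte markers was higher, and none of 10 smooth muscle and 5 epithelial markers was called, against 7.01% of all genes called in either direction. The cardiac calls were those of NPPB (0.94) and RYR2 (-0.63), and the leukocyte call was that of CD68 (0.89). These cardiac and leukocyte calls held under every alternative in which the genes were tested. The endothelial call was that of PECAM1, an adhesion molecule (-0.48, adjusted p = 0.042), and it held on leaving out a single array only where that array was MyoDΔ replicate 3 (otherwise 0.0661 to 0.128). RH30-SR replicate 2 stood somewhat apart, with correlations down to 0.994 with its own group against at least 0.996 in the other pairs within a group.

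None of the 10 heavy chain genes was called, which required a fold change over 25% together with an adjusted p below 0.05, against 7.01% of all 22448 genes (limma, Benjamini-Hochberg adjustment over all transcript clusters). MYH10 was the 1 member with an adjusted p below 0.05, or with an unadjusted p below 0.05. Over all genes the corresponding shares were 9.95% and 24.6%, and 2.94% passed, like MYH10, on the adjusted p with a fold under the threshold. The 10 log2 differences ranged from -0.10 to 0.32 with a median of -0.01, and the median over all genes was also -0.01. The median size of the difference regardless of sign was 0.0367 in the family and 0.0733 over all genes. The groups did not overlap in 4 of 10 members, against 34.2% of all genes. MYH2 and MYH10 were higher on all MyoDΔ arrays (15.8% of all genes), and MYH3 and MYH7 were lower (18.4% of all genes).

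**Figure D1:**
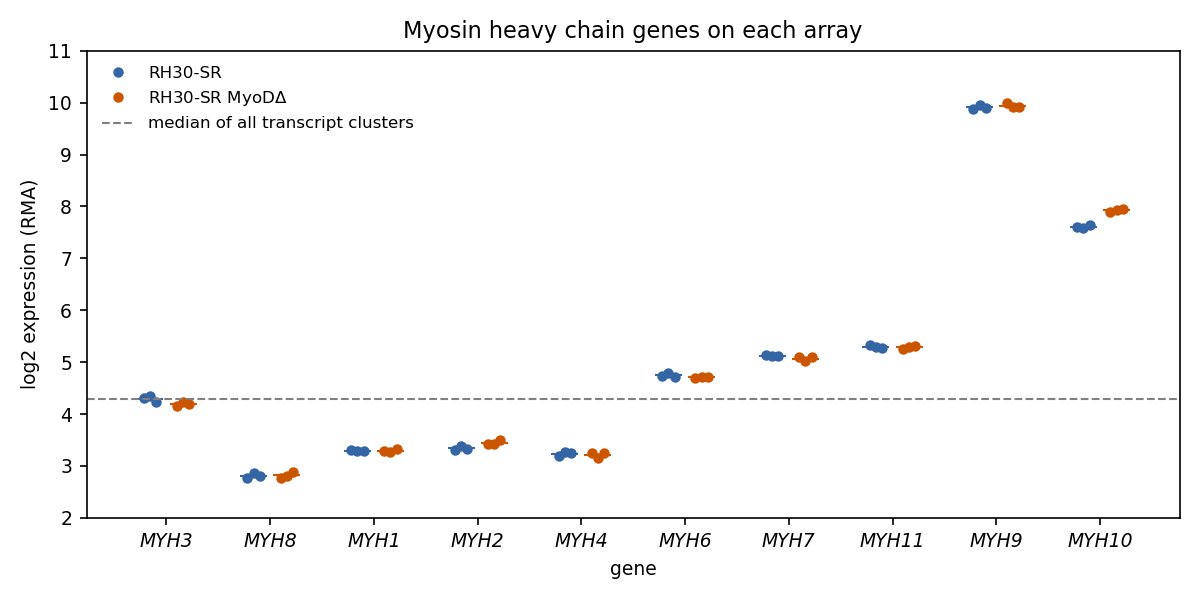
Log2 expression (RMA) of the 10 myosin heavy chain genes on the 3 RH30-SR arrays (blue) and the 3 RH30-SR MyoDΔ arrays (orange), with group means as short lines and the median of all transcript clusters (4.295) dashed. The widest separation is that of MYH10, which lies at 7.58 to 7.65 in RH30-SR and at 7.89 to 7.96 in MyoDΔ cells; different genes are read by different probes, so that heights are not comparable between genes.

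MYH10, the non-muscle IIB chain, was higher in MyoDΔ cells. It read 7.60, 7.58 and 7.65 on the RH30-SR arrays and 7.89, 7.94 and 7.96 on the MyoDΔ arrays. All MyoDΔ values lay above all RH30-SR values, with a gap of 0.24 that exceeded the spread within either group (SD 0.0361 in each). The log2 difference was 0.32 ± 0.05 (SE, n = 3 per group) with a 95% interval of 0.20 to 0.44, and the limma adjusted p was 0.0126. The rise amounted to 24.8%, just short of the 25% threshold, so the gene passed on the p value and not on the fold. An exact two-sided permutation test over the 6 arrays gave 0.1, the smallest p that 3 against 3 arrays allow. Among all genes, 8.26% had a difference of at least this size in either direction. Leaving out single arrays moved the difference little (0.30 to 0.34), but changed whether MYH10 passed the thresholds. Without RH30-SR replicate 3 or MyoDΔ replicate 1 the difference was 0.34 and MYH10 passed both thresholds (adjusted p = 0.0391 and 0.0396), whereas without MyoDΔ replicate 2 or 3 the adjusted p was 0.061 and 0.0628. Without RH30-SR replicate 2, the array that stood apart, it read 0.30 (adjusted p = 0.0338).

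MYH9, the non-muscle IIA chain, did not pass the test. It read 9.88, 9.95 and 9.90 in RH30-SR and 9.99, 9.92 and 9.91 in MyoDΔ cells, and the groups overlapped. The difference was 0.03 ± 0.05 with a 95% interval of -0.09 to 0.15 (adjusted p = 0.828), an interval that lies wholly below that of MYH10. MYH11, the smooth muscle chain, read 5.33, 5.29 and 5.28 against 5.26, 5.30 and 5.31. Its interval of -0.12 to 0.10 around -0.01 (adjusted p = 0.948) also excluded a change of the size seen in MYH10. The MYH11 locus overlaps NDE1 in RefSeq, and the 3′ ends of MYH10 and NDEL1 overlap by 117 bases. NDEL1, which encodes a dynein regulator and was looked at after the values of MYH10 were known, differed by 0.05 ± 0.05 (adjusted p = 0.639).

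The 5 sarcomeric genes of chromosome 17 averaged below the median of all clusters, with single readings of 2.77 to 4.34, and none passed the test. MYH3, the embryonic chain, read 4.30, 4.34 and 4.24 in RH30-SR and 4.16, 4.23 and 4.20 in MyoDΔ cells. These groups did not overlap, but only 0.01 separated them, and the 95% interval of the difference ran from -0.22 to 0.03. MYH8, the perinatal chain, read 2.77, 2.87 and 2.80 against 2.77, 2.81 and 2.89, with full overlap. MYH1 read 3.30, 3.29 and 3.29 in RH30-SR and 3.28, 3.27 and 3.32 in MyoDΔ cells, the closest match of all members (0.00 ± 0.05, adjusted p = 0.985, interval -0.11 to 0.11). MYH4 read 3.19, 3.27 and 3.25 against 3.25, 3.16 and 3.24, again with overlap. For MYH2, the IIa chain, the difference pointed upward. Its values of 3.31, 3.38 and 3.33 in RH30-SR all lay below the 3.43, 3.42 and 3.50 of MyoDΔ cells. The difference of 0.11 ± 0.05 did not pass (adjusted p = 0.316, interval -0.01 to 0.23). SCO1, a mitochondrial copper chaperone gene numbered next to MYH3 on the array and named here for its position, differed by 0.02 ± 0.05 at a level of 7.28 to 7.36. GAS7, numbered next to MYH13 at the other end, read 5.12, 5.04 and 5.06 in RH30-SR and 4.87, 4.83 and 4.88 in MyoDΔ cells. Its groups did not overlap, and it was not called (-0.21 ± 0.05, limma adjusted p = 0.0552). Both were looked at after the data were seen.

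The values used here carry no measure of background, so whether these low values reflect transcript or background cannot be told, and a change hidden in background would not show. Probes of near-identical paralogs can read each other's transcripts, which was not tested, and the long antisense transcript MYHAS, which spans MYH8, MYH4, MYH1 and MYH2 in RefSeq, was not analysed here. Changes at such levels were uncommon but present. Of 6677 genes at or below the median of all clusters, 0.884% were called lower and 0.704% higher, against 5.6% and 3.7% of the genes above it. TTN, which encodes the giant sarcomeric spring titin and was picked for this comparison after its values were seen, was one of them. It read 3.83, 3.79 and 3.77 in RH30-SR and 3.14, 3.10 and 3.12 in MyoDΔ cells.

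The start regions of the fast and perinatal genes are shown because these neighbours, none of which passed the test, have promoters more alike than those of other members. Promoters of 7 of the 10 members were in the RefSeq table (GRCh38.p14), and MYH3, MYH7 and MYH11 are named only. Each line gives the 250 bases before the start of the gene, 5′ to 3′ on the minus strand, with the longest run common to all 4 genes in capitals.
MYH8, chr17:10421951-10422200: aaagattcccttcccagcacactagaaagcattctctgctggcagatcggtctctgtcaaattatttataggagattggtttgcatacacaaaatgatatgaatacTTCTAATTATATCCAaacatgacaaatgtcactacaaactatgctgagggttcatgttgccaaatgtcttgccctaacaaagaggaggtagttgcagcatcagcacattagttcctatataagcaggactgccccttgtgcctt
MYH4, chr17:10469560-10469809: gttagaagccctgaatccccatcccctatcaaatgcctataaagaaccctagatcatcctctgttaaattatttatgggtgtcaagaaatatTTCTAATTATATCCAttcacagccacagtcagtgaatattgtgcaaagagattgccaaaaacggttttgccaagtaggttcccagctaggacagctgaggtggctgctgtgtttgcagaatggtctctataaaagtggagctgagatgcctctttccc
MYH1, chr17:10518543-10518792: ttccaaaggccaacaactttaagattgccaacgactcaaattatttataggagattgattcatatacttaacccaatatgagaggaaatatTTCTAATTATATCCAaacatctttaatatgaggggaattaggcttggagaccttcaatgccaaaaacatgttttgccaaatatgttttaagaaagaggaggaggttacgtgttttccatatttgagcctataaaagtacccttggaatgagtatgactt
MYH2, chr17:10549659-10549908: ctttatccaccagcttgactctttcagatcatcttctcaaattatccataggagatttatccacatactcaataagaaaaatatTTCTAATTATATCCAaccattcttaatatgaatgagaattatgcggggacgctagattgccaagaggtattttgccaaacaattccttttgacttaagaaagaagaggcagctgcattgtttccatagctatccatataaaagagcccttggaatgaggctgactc

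The 15-base run TTCTAATTATATCCA began at position -144 in MYH8, -158 in MYH4, -159 in MYH1 and -166 in MYH2, counted back from the start. It was found in 4 of 35116 RefSeq promoters, these 4, having been selected as what they share. Aligned over the 250 bases with gaps allowed, MYH1 and MYH2 were 74.8% identical and the other pairs among the 4 were 64.8% to 67.6% identical. By the same measure, all remaining pairs of the 7 promoters reached 49.6% (MYH1 and MYH9) to 60.8% (MYH6 and MYH10). E-boxes, searched as CANNTG on both strands, were present in 5 of the 7 promoters, close to the 61.8% of all promoters. MYH2 (position -58) and MYH4 (position -67) held the form CAGCTG, a subset of CANNTG found in 14.0% of all promoters. MYH8 held CAAATG at -122 and -84, and MYH4 held CAAATG at -221. The MEF2 consensus matched TTATTTATAG in MYH1 (-210) and MYH8 (-189), overlapping a TATAAA match on the other strand in both, and occurred in 2.8% of all promoters. A TATAAA match also began at -31 in MYH1, MYH2 and MYH4 and at -30 in MYH6, with a further match at -213 in MYH4 (10.7% of all promoters). No CArG box was found in the 7 (1.16% of all promoters). These are matches of letters and not measured binding.

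**Figure D2:**
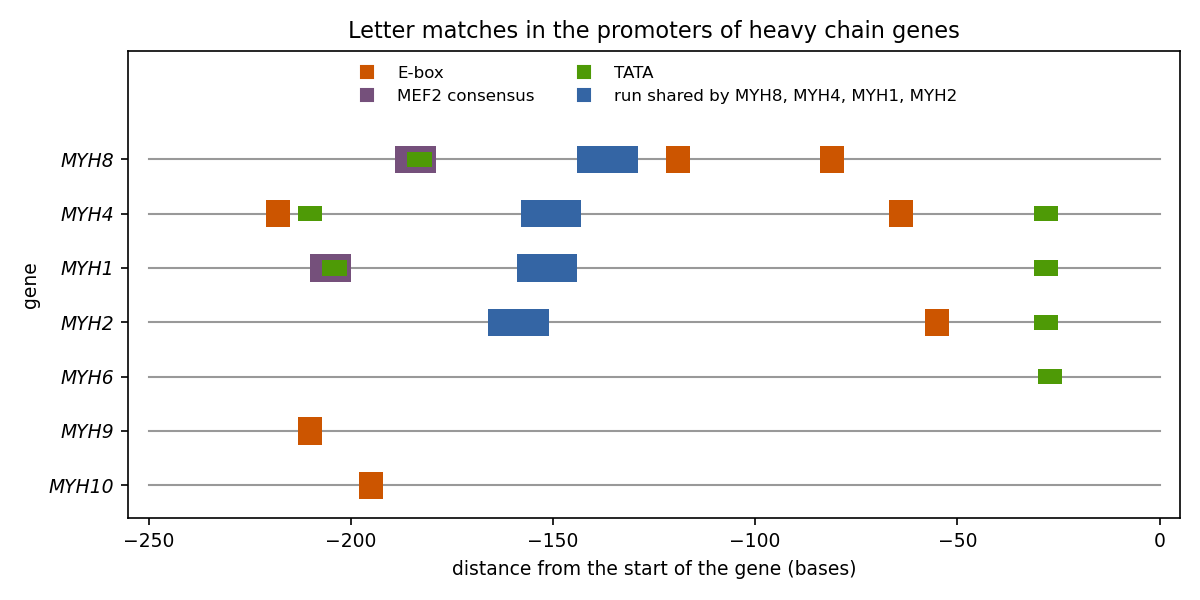
Positions of letter matches in the 250 bases before the start of the 7 heavy chain genes with a promoter in RefSeq (distance from the start in bases). The 15-base run shared by MYH8, MYH4, MYH1 and MYH2 (blue) begins between -166 and -144, and MYH10 holds 1 E-box at -198.

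The promoter of MYH10, the member that rose on the p value, is shown for contrast with its single E-box in capitals.
MYH10, chr17:8630726-8630975, minus strand: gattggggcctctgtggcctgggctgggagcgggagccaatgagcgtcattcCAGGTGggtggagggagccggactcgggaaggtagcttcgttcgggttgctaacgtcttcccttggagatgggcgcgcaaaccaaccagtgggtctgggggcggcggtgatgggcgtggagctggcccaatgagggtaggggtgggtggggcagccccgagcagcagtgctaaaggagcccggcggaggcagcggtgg
It held no TATAAA and no MEF2 match, and its GC content was 67.2%, against 33.6% to 42.4% in the 4 promoters above and 71.6% in MYH9.

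The cardiac chains on chromosome 14 also did not pass. MYH7, the slow and beta-cardiac chain, read 5.14, 5.11 and 5.12 in RH30-SR and 5.09, 5.03 and 5.09 in MyoDΔ cells. The groups were separate by 0.02 only, and the difference of -0.05 ± 0.05 (interval -0.17 to 0.06, adjusted p = 0.638) was within the error. MYH6, the alpha-cardiac chain, read 4.74, 4.80 and 4.71 against 4.69, 4.72 and 4.71, with overlap (-0.04 ± 0.05, adjusted p = 0.726). Over all 7 sarcomeric members the 95% intervals stayed between -0.22 and 0.23 on the log2 scale, that is, between 0.858-fold and 1.17-fold. These intervals bound the array readings only, since the height of these 7 genes over background is unknown. By qPCR, the study reported less myosin heavy chain RNA in RH30-SR cells after knockdown of MyoD. It also reported lower expression of differentiation genes by qPCR in RH30-SR MyoDΔ cells. In RH30 cells it reported more myosin heavy chain RNA and protein than in human myoblasts. These assays were not compared here. MYH6 and MYH7 each host a microRNA gene, MIR208A within MYH6 and MIR208B within MYH7, whose 3p products share 1 seed. The mature sequences of these and of the muscle microRNAs that fell are given with the seed (bases 2 to 8) in capitals, from RefSeq (GRCh38.p14).
hsa-miR-208a-3p, chr14:23388602-23388623, minus strand: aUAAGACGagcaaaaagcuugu
hsa-miR-208b-3p, chr14:23417997-23418018, minus strand: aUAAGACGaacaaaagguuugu
hsa-miR-133b, chr6:52148988-52149009, plus strand: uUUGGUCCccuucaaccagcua
hsa-miR-206, chr6:52144401-52144422, plus strand: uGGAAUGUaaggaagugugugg

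The clusters for these genes did not separate mature microRNA from precursor. MIR208A read 2.30, 2.37 and 2.42 in RH30-SR and 2.38, 2.36 and 2.27 in MyoDΔ cells, and MIR208B read 1.61, 1.69 and 1.74 against 1.71, 1.79 and 1.62. The groups overlapped for both. MIR133B, which is transcribed with MIR206 in muscle, fell from 4.83, 5.05 and 4.75 to 4.04, 4.28 and 3.96 (-0.78 ± 0.11, adjusted p = 0.0078). MIR206 read 2.89, 2.43 and 2.73 against 2.03, 2.04 and 2.26 (-0.57 ± 0.12, adjusted p = 0.0431). That call was lost after quantile normalization or cyclic loess (adjusted p = 0.0683 and 0.0674), and it held on leaving out a single array only where that array was RH30-SR replicate 2 (otherwise 0.0704 to 0.143). These 2 were the calls among 5 measured of 9 listed microRNA genes, against 4.2% of all genes called lower.

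**Figure D3:**
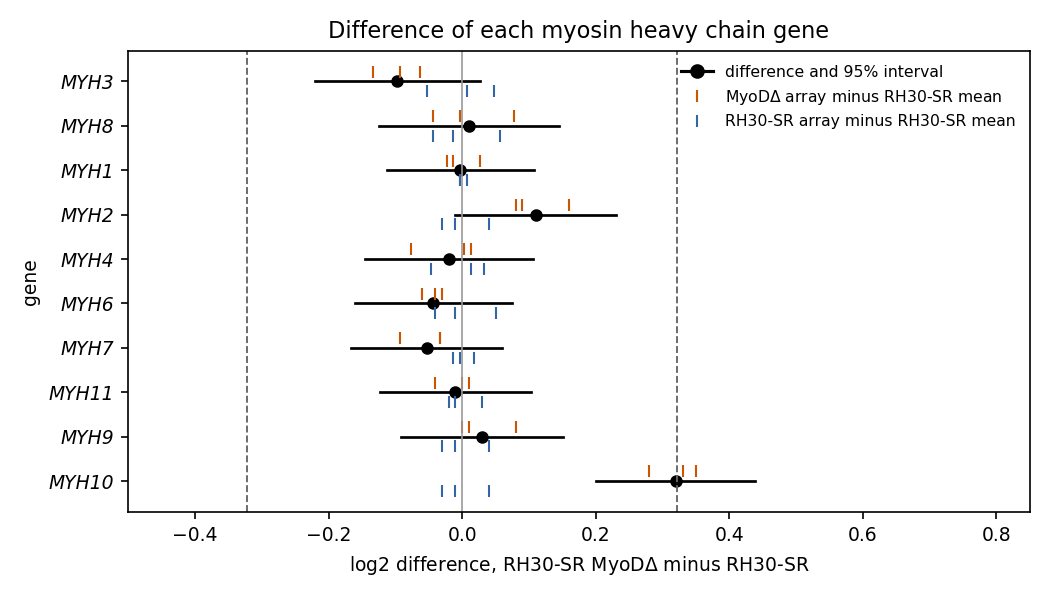
Log2 difference of each heavy chain gene (RH30-SR MyoDΔ minus RH30-SR, black points) with its 95% interval from the limma fit, and each array's value minus the RH30-SR mean (orange for MyoDΔ, blue for RH30-SR). Dashed lines mark a fold change of 25%; the point for MYH10 (0.32) lies at the upper line and those of the other 9 genes lie between -0.10 and 0.11.

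Of the other class II heavy chains, the 5 listed, MYH7B, MYH13, MYH14, MYH15 and MYH16, gave no call, and their differences ranged from -0.18 to 0.01. MYH14, the non-muscle IIC chain, was the furthest from 0, with 6.87, 6.94 and 6.84 in RH30-SR and 6.72, 6.72 and 6.67 in MyoDΔ cells (-0.18 ± 0.05, adjusted p = 0.105). Its groups did not overlap, and its sign was opposite to that of MYH10. The 95% intervals of the 2 non-muscle chains, -0.30 to -0.06 and 0.20 to 0.44, were apart.

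Several partners of the heavy chains in the thick filament fell while the heavy chains did not pass. Of 15 measured genes of light chains, myosin-binding proteins, myomesins and titin, 6 were lower, none was higher and 9 were not called, against 4.2% of all genes called lower. The median difference of the list was -0.17. MYL4, the embryonic and atrial essential light chain, fell from 7.75, 8.06 and 7.96 to 5.64, 5.64 and 5.58 (-2.30 ± 0.08, adjusted p = 2.15e-05). MYL11, the fast regulatory light chain, changed by -1.73 ± 0.12 and MYL1, the fast essential light chain, by -1.69 ± 0.08 (adjusted p = 3.02e-04 and 6.86e-05). These 3 intervals, the highest bound of which was -1.46, lay far below those of all 7 sarcomeric heavy chains. The 7 heavy chains read 2.77 to 5.14, at an unknown height over background, so that a change there may not show. MYBPHL, a relative of myosin-binding protein H, was the least firm of the 6 (-0.36 ± 0.07, adjusted p = 0.0229), and kept its call on leaving out a single array only where that array was RH30-SR replicate 3 (otherwise 0.0594 to 0.0926). Among 11 genes for the folding and turnover of myosin, 2 were lower. These were TRIM55, a ubiquitin ligase that binds titin (-0.71 ± 0.05), and FBXO32, the muscle ubiquitin ligase atrogin (-0.69 ± 0.05). UNC45B, the myosin chaperone of striated muscle, read 4.58, 4.67 and 4.59 against 4.45, 4.53 and 4.48 and was not called (adjusted p = 0.259).

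Among 27 measured regulators of heavy chain genes, 5 were lower and 1 was higher, with a median of -0.09, against 4.2% of all genes called lower and 2.81% called higher. One of the lower genes was MYOD1, the target of the edit. MYOD1, MYOG and MYF5 were also counted above among the skeletal muscle markers. MYOG, which encodes myogenin, changed by -2.70 ± 0.14, and VGLL2, a muscle cofactor of TEAD proteins, fell from 7.56, 7.66 and 7.66 to 5.96, 5.66 and 5.86 (-1.80 ± 0.08, adjusted p = 6.78e-05). MEF2C, named because MEF2 sites were searched above, fell from 6.70, 6.56 and 6.72 to 5.24, 5.26 and 5.29 (-1.40 ± 0.06, adjusted p = 4.46e-05). MEF2A and MEF2D were not called (adjusted p = 0.309 and 0.231). MYF5, the relative of MyoD, was the member that rose (0.98 ± 0.08). SOX6, which represses slow genes in fetal muscle of the mouse, read 2.93 to 3.05 on all arrays with no call.

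**Figure D4:**
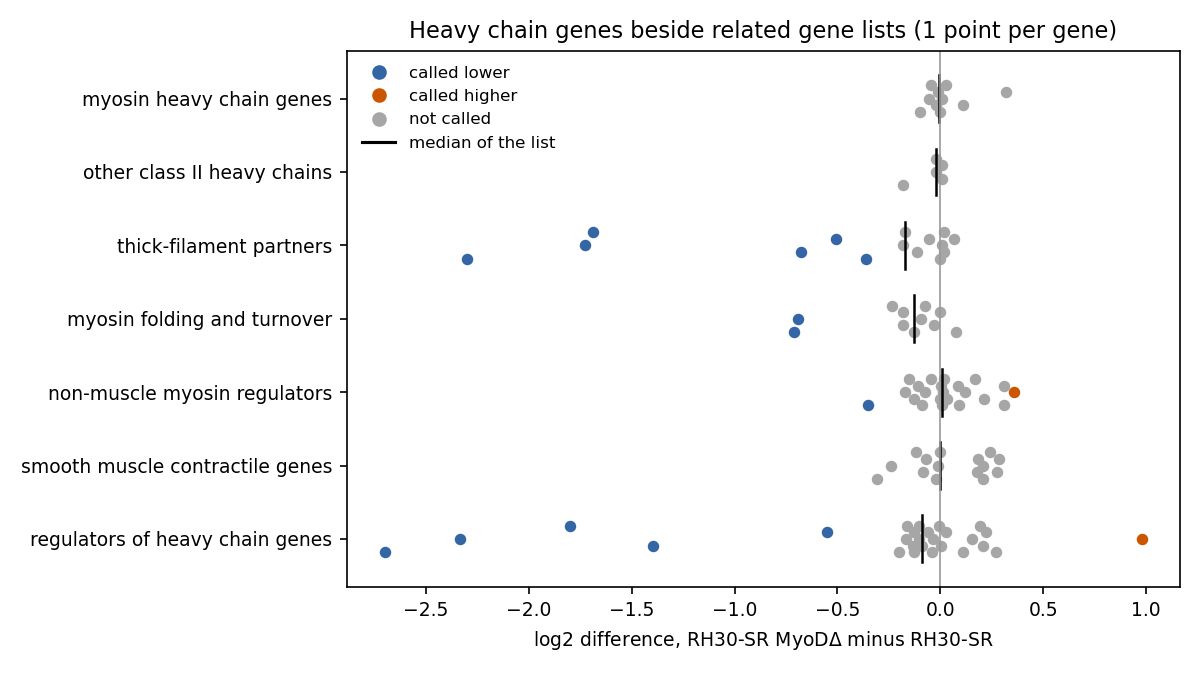
Log2 difference (RH30-SR MyoDΔ minus RH30-SR) of each gene in the heavy chain family and in 6 related lists, 1 point per gene, with list medians as black lines. Called genes are blue (lower) and orange (higher); the heavy chains hold no call, while 6 thick-filament partners and 5 regulators are lower.

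The non-muscle machinery held calls in both directions. Of 22 measured light chains, kinases, phosphatase subunits and other proteins that work with MYH9 and MYH10, 1 was higher and 1 was lower, with a median of 0.01, a count near the 7.01% called among all genes. Both called genes encode targeting subunits of myosin phosphatase. PPP1R12A read 8.47, 8.32 and 8.48 in RH30-SR and 8.72, 8.79 and 8.84 in MyoDΔ cells (0.36 ± 0.07, adjusted p = 0.0222), and PPP1R12B read 6.20, 6.24 and 6.15 against 5.92, 5.81 and 5.80 (-0.35 ± 0.06, adjusted p = 0.0141). Neither was stable: PPP1R12A lost its call without any 1 of the 6 arrays, by the p value (0.0511 to 0.0918) or, without RH30-SR replicate 2, by the fold (0.31), and PPP1R12B without RH30-SR replicate 1, MyoDΔ replicate 2 or MyoDΔ replicate 3 (0.0515 to 0.0668). The light chains MYL12A (0.02 ± 0.05) and MYL9 (0.00 ± 0.05) did not pass. DAPK1, like MYH10, passed on the adjusted p with a fold under the threshold (0.21 ± 0.05, 0.0466), but not without any single array (0.0888 to 0.158). The kinases ROCK1 and ROCK2 each differed by 0.31 and did not pass (adjusted p = 0.0939 and 0.0873). Groups did not overlap in 12 of the 22 genes, 7 higher and 5 lower, against 34.2% of all genes. Of 15 smooth muscle contractile genes, none was called by limma, 4 had an adjusted p below 0.05 with a fold under the threshold (2.94% of all genes), and 9 had an unadjusted p below 0.05 (24.6% of all genes). The median of the list was 0.00, and the 4 differences pointed both ways. TPM1, a tropomyosin, read 0.28 ± 0.05 (adjusted p = 0.0263) and MYOCD, the smooth muscle coactivator myocardin, 0.28 ± 0.06 (adjusted p = 0.0321). SYNPO2, an actin-binding protein, read -0.31 ± 0.06 (adjusted p = 0.0324) and MRTFB, a coactivator of serum response factor, -0.24 ± 0.05 (adjusted p = 0.035), both named to give all 4. With a single array left out, the limma adjusted p of TPM1 stayed below 0.05 only without RH30-SR replicate 1. That of MYOCD did so only without RH30-SR replicate 2, and that of SYNPO2 only without RH30-SR replicate 3. Otherwise their values were 0.0521 to 0.117, and MRTFB never passed (0.0739 to 0.12). With the replicate block all 4 lay at 0.0901 to 0.121.

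The genes whose profile over the 6 arrays lay closest to that of MYH10 were AFTPH, DGKH and MOK, at distances of 0.0385, 0.0456 and 0.0483 on the log2 scale. Each profile was centred on its own mean and compared among 15770 other genes above the median of all clusters. This comparison was made for MYH10 after its values were seen. AFTPH, which encodes the trafficking protein aftiphilin, read 7.06, 7.02 and 7.06 against 7.33, 7.39 and 7.41. Its difference of 0.33 ± 0.05 passed the fold threshold that MYH10 missed.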

How the data were processed

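Total RNA of RH30-SR and RH30-SR MyoDΔ cells was hybridised to 1-colour Affymetrix Human Transcriptome arrays, 3 per group. The authors deposited log2 expression per transcript cluster after RMA (background correction, quantile normalization, median polish). Affymetrix Expression Console and RMA are named in the submitters' processing notes, and oligo in the methods of the study. The methods name affycoretools and the annotation package of the array for the symbols. Versions and the genome build are not given in the sources used here. Quantile normalization would hide a change shared by most transcripts. The table held 65535 clusters, of which 22758 carried 1 symbol. A second table, whose 6 columns held identical values (largest difference 0), was not used.

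Differences were computed as MyoDΔ minus RH30-SR with limma 3.58.1 (lmFit, eBayes) in R 4.3.3 on all clusters, with Benjamini-Hochberg adjustment. A call needed a fold change over 25% with an adjusted p below 0.05, as in the methods of the study, and each gene was represented by its cluster with the highest mean. SE is the moderated standard error, and SD is over 3 arrays. How the cultures were kept apart was not stated, and the p values therefore reflect array-to-array spread, which may be technical. The number of arrays limits the precision. The procedure was tested on simulated data.

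All members were named, with MYOD1, the other class II heavy chains, up to 3 called genes per list and direction (or the 2 with the smallest adjusted p) and the nearest profiles of called members. As no member was called, the profiles were searched for MYH10, after its values were seen. The members and lists were chosen with earlier results of these data known. The alternatives were quantile normalization, median centring, cyclic loess, array weights, an intensity trend, a filter at the median of all clusters, the replicate number as a block, the mean over the clusters of a gene and leaving out each array. Promoter and microRNA sequences came from RefSeq (GRCh38.p14), matched by symbol.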

Additional observations from a re-analysis of the deposited data

How the results depend on the processing

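The differences of MYH2, MYH3, MYH6 and MYH7 kept their direction and stayed uncalled under every alternative in which they were measured, and that of MYH1 stayed between -0.02 and 0.01. The sign changed for MYH9 after cyclic loess (-0.01), and with single arrays left out for MYH4 (-0.04 to 0.01), MYH8 (-0.02 to 0.04) and MYH11 (-0.02 to 0.01), all without a call. MYH10 ranged from 0.30 to 0.34 with single arrays left out, and from 0.31 to 0.32 otherwise. It was therefore the 1 member called without RH30-SR replicate 3 or MyoDΔ replicate 1, so that the number of called members ranged from 0 to 1. With single arrays left out, 0 to 1 of the non-muscle regulators, 0 to 1 of the smooth muscle genes (SYNPO2, -0.35 without RH30-SR replicate 3) and 1 to 2 of the microRNA genes were called. MicroRNA calls fell to 1 after quantile normalization, after cyclic loess, with the replicate block and with only clusters above the median tested, where 1 of them was tested. Over all genes, 409 to 526 were called higher with single arrays left out (409 without MyoDΔ replicate 2), and 2031 to 2716 clusters were called (2031 without MyoDΔ replicate 3). Arrays with the same replicate number did not deviate together (correlations of -0.111, -0.082 and 0.011, and 0 of 6 arrays correlated best with their own number). With the replicate block the adjusted p of MYH10 was 0.058 (0.00313 to 0.0628 over its 14 alternatives), 0 of the non-muscle regulators were called, MIR206, MYBPHL and PECAM1 lost their calls (0.0572, 0.0728 and 0.101), and 439 genes were called higher and 726 lower. The second table held identical values, so no fit was run on it. The readings of the 7 sarcomeric genes, lowest on chromosome 17, limit what could be seen there, since their height over background is unknown. The filter at the median removed MYH1, MYH2, MYH3, MYH4 and MYH8.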
